A study of Mus musculus with 20 samples.

Results

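The nuclear genes of the mitochondrial respiratory chain were followed in the neocortex and hippocampus of mice lacking the APP family in excitatory neurons. Members were the genes whose symbol begins with Nduf followed by a, b, c, s or v and a number, the genes Sdha to Sdhd, and the genes whose symbol begins with Uqcr, with Cox and a number from 4 to 8, or with Atp5. Of 24421 genes in the count tables, 84 matched, and 79 were kept because their CPM (counts scaled to the library total) were above 1 in at least 5 of the 20 libraries. The CPM printed below were in addition scaled by TMM factors, which even out library composition. The kept members were 34 genes of complex I, 4 of complex II, 8 of complex III, 16 of complex IV, 15 of complex V and 2 assigned to neither, Atp5s and Atp5sl. None of the 13 subunits encoded by mitochondrial DNA had a row in the tables, so these were not analysed here.

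All mice were 3 months old, of both sexes and of a mixed C57BL/6J and 129 background, and all carried floxed App, Aplp1 and Aplp2 alleles. The cTKO mice also carried Camk2a-Cre, a transgene whose Camk2a promoter drives recombination in forebrain excitatory neurons after birth, so other cells kept intact alleles; the labels write their genotype as APP/APLP1/APLP2 -/-. The controls were littermates without Cre, which the labels call wild type. By the study's methods, both regions were taken from the same 5 cTKO and 5 control mice. Poly-A RNA from 5 samples per genotype and region was sequenced, 20 libraries of 12169474 to 25331954 counted reads, which put the level given by 3 reads at 0.118 to 0.247 CPM. RNA was purified with a different kit in each region, so region and kit cannot be told apart.

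App was at 331.7 to 460.97 CPM in the cTKO libraries and 1378 to 1812 CPM in the controls. The 3 dentate granule markers summed to 174 to 316 CPM in hippocampus and 13.7 to 21.7 CPM in neocortex. The 5 neocortex markers summed to 156 to 219 CPM and 498 to 723 CPM, though 1 of them, Fezf2, rose in control hippocampus. The 5 hippocampus markers summed to 251 to 380 CPM in hippocampus and 182 to 222 CPM in control neocortex. In cTKO neocortex they overlapped hippocampus at 237 to 505 CPM, with Wfs1 at 224 to 493 CPM. By App and the dentate granule and neocortex sums, genotype and region followed the labels. Library 5 of cTKO neocortex and library 4 of cTKO hippocampus stood apart, with summed erythroid markers of 218 and 136 CPM. Most of this was Hbb-y, at 193 and 121 CPM, and Hbb-bh1, at 20.9 and 12.1 CPM. The globin genes Hba-a1, Hbb-bt and Hbb-bs were at 0 in every library, so the sums are no measure of adult blood. Counts or medians over the members are given with and without these libraries. Log2 fold changes of single members are given with them only. These are bulk tissues, in which fewer cells of a type and less RNA per cell cannot be told apart.

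The respiratory chain sits in the inner mitochondrial membrane. Complex I takes electrons from NADH and complex II from succinate, ubiquinone carries them to complex III, cytochrome c carries them on to complex IV, and complex IV passes them to oxygen. Complexes I, III and IV pump protons, and complex V, the ATP synthase, makes ATP from the returning protons. Neurons depend on this pathway for most of the ATP that ion pumping and synaptic transmission use.

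Promoter windows were read from RefSeq (build GRCm38.p6, 250 bases before to 50 after a start) for 65 of the 79 kept members, in 71 windows. They are shown because the members moved together between regions and because the promoters of nuclear respiratory genes are known for sites of NRF1, of ETS factors such as GABPA, and of YY1. Each was searched on both strands for the letters GCATGCG (the NRF1 core), CCGGAAG (ETS) and AAGATGG (the YY1 core). CCGGAAG and AAGATGG can overlap in the letters AAG, so the searches are not fully separate. GCATGCG can overlap its own reverse complement, as it does in both printed windows that hold it. GCATGCG stood in 15.5% of the members' windows and in 3.58% of all 32851 RefSeq windows. CCGGAAG stood in 22.5% and 8.86%, and AAGATGG in 18.3% and 6.34%. At least 1 of the 3 stood in 33 of the 71 windows, 46.5% against 17.3% of all. The windows of all genes were not limited to expressed genes and were not matched for base content. A match of letters is a description of the window and not a site. The windows of the members with the largest regional rise in each complex are printed 5′ to 3′ with the matches in capitals. Atp5k, a small membrane subunit of the ATP synthase, and Uqcr11, a small subunit of complex III, held both the NRF1 core and the ETS letters. Ndufb6 of complex I and Sdhd of complex II held the ETS letters, and Ndufa4 of complex IV held none of the 3. Among the members next in rank, Ndufa7, Uqcr10 and Cox7b held none, Atp5e held the ETS letters and Sdhc was not among the members with a window.
Atp5k, chr5:108434350-108434649, minus strand: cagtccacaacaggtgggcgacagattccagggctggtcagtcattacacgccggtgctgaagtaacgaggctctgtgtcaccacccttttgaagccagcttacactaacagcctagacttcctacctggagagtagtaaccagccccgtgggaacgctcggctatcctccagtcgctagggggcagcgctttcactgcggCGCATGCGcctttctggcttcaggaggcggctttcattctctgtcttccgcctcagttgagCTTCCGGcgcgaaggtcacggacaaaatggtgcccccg
Uqcr11, chr10:80406772-80407071, minus strand: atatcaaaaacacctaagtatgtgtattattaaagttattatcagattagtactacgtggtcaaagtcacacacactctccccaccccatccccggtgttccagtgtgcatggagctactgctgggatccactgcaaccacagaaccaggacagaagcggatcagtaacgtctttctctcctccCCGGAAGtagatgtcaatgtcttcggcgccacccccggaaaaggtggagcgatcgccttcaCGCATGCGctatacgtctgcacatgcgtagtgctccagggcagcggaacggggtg
Ndufb6, chr4:40279372-40279671, minus strand: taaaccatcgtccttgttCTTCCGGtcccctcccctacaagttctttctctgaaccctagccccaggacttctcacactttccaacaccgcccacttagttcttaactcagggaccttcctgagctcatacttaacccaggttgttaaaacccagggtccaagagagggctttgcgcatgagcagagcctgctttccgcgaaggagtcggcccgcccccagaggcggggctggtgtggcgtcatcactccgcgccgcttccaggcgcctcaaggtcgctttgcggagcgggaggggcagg
Sdhd, chr9:50603800-50604099, minus strand: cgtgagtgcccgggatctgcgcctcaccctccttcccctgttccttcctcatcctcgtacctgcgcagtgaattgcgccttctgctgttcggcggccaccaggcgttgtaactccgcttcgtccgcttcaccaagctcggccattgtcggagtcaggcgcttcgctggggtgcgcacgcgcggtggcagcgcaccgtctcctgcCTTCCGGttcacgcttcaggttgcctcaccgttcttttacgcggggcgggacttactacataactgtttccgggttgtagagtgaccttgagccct
Ndufa4, chr6:11907401-11907700, minus strand: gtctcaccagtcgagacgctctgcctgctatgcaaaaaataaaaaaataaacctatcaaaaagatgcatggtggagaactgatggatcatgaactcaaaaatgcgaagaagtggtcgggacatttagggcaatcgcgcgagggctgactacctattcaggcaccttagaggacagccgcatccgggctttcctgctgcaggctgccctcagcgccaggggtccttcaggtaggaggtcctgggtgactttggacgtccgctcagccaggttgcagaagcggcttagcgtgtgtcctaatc

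Levels were read first in the neocortex of control mice, per kb of the longest RefSeq transcript so that genes could be compared. In complex IV the highest were Cox8a and Cox6a1, at 408 and 385 CPM per kb, and in complex V the F1 beta subunit Atp5b, which carries the catalytic sites, at 402 CPM per kb. In complex I the highest was Ndufb10 at 136 CPM per kb, followed by Ndufb9 at 124 CPM per kb. In complex III the hinge protein Uqcrh stood at 179 CPM per kb and Uqcrq at 28.3 CPM per kb, and in complex II the flavoprotein Sdha at 109 CPM per kb and the membrane anchor Sdhc at 14.5 CPM per kb. The lowest kept members of complexes I and V were Ndufb4, at 6.26 CPM per kb, and Atp5l, subunit g of the ATP synthase, at 2.33 CPM per kb.

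Some members, among them Ndufb4 and Atp5l, share sequence with other annotated genes. Reads were 100 bases long, and of the 100-base windows in the transcript of Atp5l, 61.3% also occurred in a transcript of another annotated gene. The share was 33.4% for Ndufb4, 86.4% for the ATP synthase c subunit Atp5g2, 44.4% for the complex IV subunit Cox7c and 32.7% for the complex V subunit Atp5h, and these 5 were the kept members above 30%. Ndufs5, an accessory subunit of complex I that is listed at 0 in every library, had 27%. Levels of these genes are uncertain, since reads that fit several places may not have been counted. Not all were low, with Atp5h at 132 to 145 CPM in control neocortex. The part of shared windows in the low values was not tested. For 61 of the 79 kept members no window was shared. In addition 27 kept members overlap another gene, and whether counting used the strand is not given in the sources used here.

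The members left out were Ndufs5 and 4 tissue isoforms of complex IV. Cox8c, the testis form of subunit 8, was at 0 counts in all 20 libraries. Cox7b2, the testis form of subunit 7b, reached at most 0.862 CPM. Cox7a1, the heart and muscle form of subunit 7a, lay just outside the filter, with 4 libraries above 1 CPM on the library totals the filter used and 6 after TMM scaling. The hypoxia-linked Cox4i2 lay just inside it, with 9. Cox8b, the muscle form of subunit 8, was at 3.32 CPM in control hippocampus library 3 and at most 0.453 CPM in the other 19 libraries. Cox7a1 was also highest in that library, at 2.41 CPM against at most 1.15 CPM elsewhere. The same library held the most Ttr, a choroid plexus marker, at 2467 CPM, and its 6 choroid plexus markers summed to 2711 CPM against 75.9 CPM in the lowest control hippocampus library. The part of choroid plexus in these values was not tested.

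The first comparison asked whether loss of the APP family changed respiratory chain transcripts in the neocortex. No member passed the test there. Of 78 tested members, 0 were called (edgeR quasi-likelihood test, false discovery rate, FDR, under 0.05), beside 0.188% of all 13843 genes tested. Cox6b2 fell under the filter in this fit. The log2 fold changes of cTKO against control were above 0 for 69 of 78 members, where 53.1% of all genes were above 0, and the median was 0.078 against 0.0090 over all genes. At an unadjusted p under 0.05, 10 members were higher and 0 lower, where 5.57% of all genes were higher and 4.86% lower. DESeq2 also called 0. All 15 members of complex V, all 8 of complex III and all 4 of complex II had a fold change above 0, with medians of 0.097, 0.086 and 0.091, while complexes I and IV had medians of 0.063 and 0.052.

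The 3 smallest p-values were those of Atp5g3, Ndufv3 and Atp5j. Atp5g3 is among the 3 genes that encode the same mature c subunit of the proton-driven ring, and it read 107, 116, 127, 114 and 112 CPM in the control neocortex and 127, 123, 141, 138 and 121 CPM in the cTKO neocortex. The groups overlapped, and the log2 fold change was 0.18 ± 0.063 (SE, edgeR FDR = 0.318). Ndufv3, an accessory subunit beside the NADH-binding part of complex I, read 47.0, 47.9, 50.7, 46.6 and 46.5 CPM in controls and 51.6, 55.5, 61.6, 60.3 and 45.9 CPM in cTKO. Library 5 of cTKO, which stood apart, was below every control, and the other 4 were above every control. Its log2 fold change was 0.21 ± 0.075 (edgeR FDR = 0.327). Atp5j, coupling factor 6 in the stalk of the ATP synthase, had a log2 fold change of 0.16 ± 0.059 (edgeR FDR = 0.364).

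Without library 5 of cTKO neocortex, which stood apart, the neocortical median was 0.10 and the count called was again 0. Without library 3 of cTKO neocortex the median was 0.046. The 95% intervals of 75 of the 78 members lay within 0.5 log2 units on either side of 0, and the exceptions were Atp5l, Cox4i2 and Ndufa4l2, all under 5 CPM. Cytosolic ribosomal protein genes, whose transcripts are also short, had a median of 0.13 in the same comparison with 0 of 78 called, and all genes with a transcript under 1 kb had a median of 0.067. When each library's trend on length was removed, the members' median fell from 0.078 to 0.032, and it was 0.039 with the trends on length and GC content removed. After the first, 0 members were called, 2 were higher at an unadjusted p under 0.05 and the log2 fold change of Atp5g3 was 0.12.

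**Figure D1:**
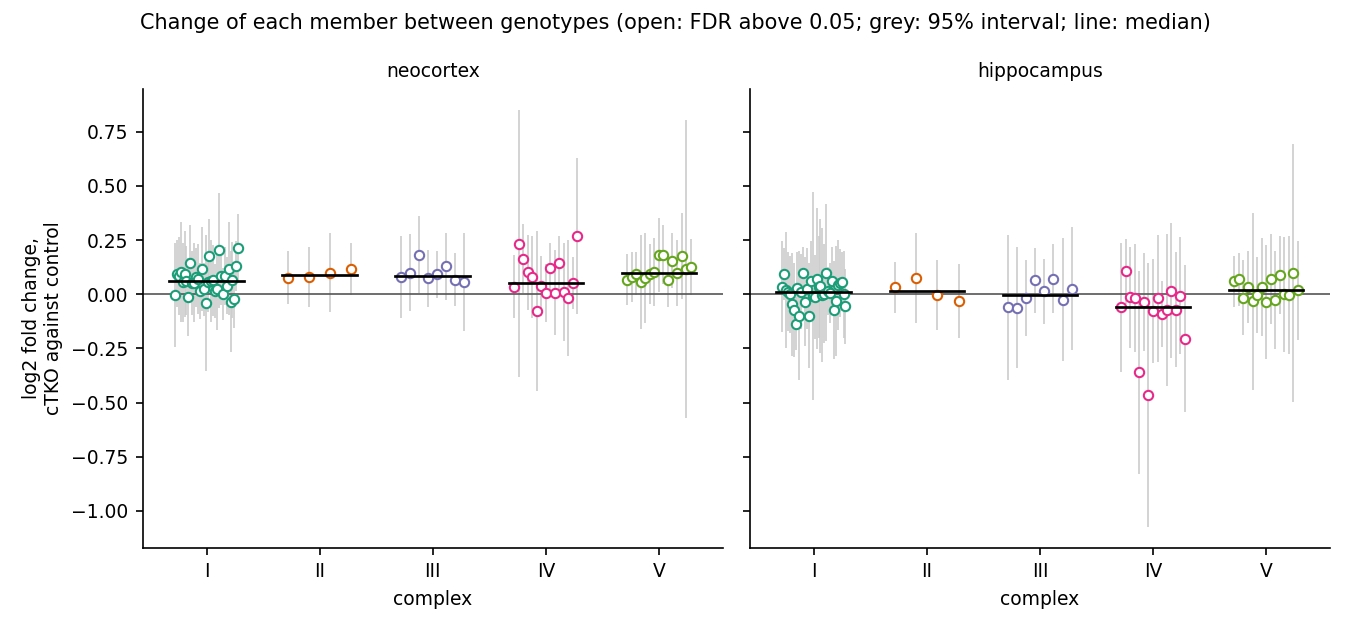
Log2 fold change of cTKO against control for each member, grouped by complex on the x axis, in neocortex (left) and hippocampus (right). Each open point is a gene with its 95% interval in grey and black lines are medians; no point is filled because 0 of 78 members passed an FDR of 0.05 in either region, and in neocortex all 15 points of complex V lie above 0.

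In the hippocampus of cTKO mice the members stood on both sides of 0. Again 0 of 78 were called, beside 0.489% of 13702 genes, and DESeq2 called 0. Cox4i2 fell under the filter. The median log2 fold change was -0.0021, with 36 of 78 above 0. At an unadjusted p under 0.05, 0 were higher and 1 was lower, against 6.13% and 5.88% of all genes. That gene was Ndufa5, an accessory subunit of the matrix arm of complex I, at 64.0, 70.0, 73.1, 64.4 and 70.7 CPM in controls and 64.8, 61.8, 62.5, 60.97 and 61.2 CPM in cTKO. The highest cTKO library exceeded the lowest 2 controls, and the log2 fold change was -0.14 ± 0.056 (edgeR FDR = 0.357). Ndufa9 and Ndufa10, also accessory subunits of complex I, followed with 0.099 ± 0.056 and 0.094 ± 0.055 (edgeR FDR = 0.522 and 0.547). Complex IV had the lowest median, -0.061, with 2 of 15 above 0. The lowest value there was that of Cox6b2, the testis form of subunit 6b, -0.46 ± 0.28 (edgeR FDR = 0.564), at means of 1.14 CPM in cTKO and 1.58 CPM in controls. Cox6a2 followed at -0.36 ± 0.22 (edgeR FDR = 0.559), and its value in library 4 of cTKO, which stood apart, was 2.54 CPM against 4.29 to 6.85 CPM in the other 4. Without that library the median over the members was 0.022, and with other libraries left out it ran from -0.094, without library 1 of cTKO, to 0.043, without library 5 of cTKO.

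Whether the genotype effect differed between regions was tested as an interaction over all 20 libraries. None of the 79 members passed, beside 0.0564% of 14192 genes. At an unadjusted p under 0.05 there were 2, both lower, and DESeq2 called 0. Ndufv3 had an interaction term of -0.26 ± 0.11 log2 units and Ndufa4l2, a hypoxia-induced relative of Ndufa4, one of -0.47 ± 0.21 (edgeR FDR = 0.9999 for both). The 95% intervals of 66 of 79 members lay within 0.5 log2 units of 0. Those of 13 did not, among them Uqcr10, Atp5k and Cox7b, so their intervals include a difference of that size.

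The second comparison set the regions against each other in control mice. Respiratory chain transcripts were higher in the hippocampus. Of 78 tested members 69 rose and 1 fell (edgeR quasi-likelihood test, FDR under 0.05), where 29.8% of 13832 genes rose and 29.2% fell. The members' median log2 fold change was 0.47 against 0.012 over all genes. All 5 hippocampal libraries lay above all 5 neocortical libraries for 65 members and below them for 1, which was the case for 22.4% and 21.8% of all genes. Summed over the members, 0.873 to 0.9999% of the counts in a control hippocampal library came from the respiratory chain, against 0.678 to 0.696% in control neocortex. The mean log2 CPM over the members was 6.09 ± 0.099 in hippocampus and 5.66 ± 0.043 in neocortex (SD, n = 5 each), a 1.35-fold difference.

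Markers of several cell types moved between the same control libraries. Of 5 astrocyte markers 4 rose and 1 fell, and their summed level was 1893 to 2395 CPM in hippocampus and 1126 to 1324 CPM in neocortex. Gfap, the astrocyte filament protein, changed most among them, by 1.93 ± 0.15 on the log2 scale (edgeR FDR = 5.41e-08). Excitatory neuron markers summed to 10573 to 11954 CPM and 9200 to 10237 CPM, with 2 of 5 higher and 2 lower, and oligodendrocyte markers to 4193 to 6210 CPM and 3578 to 4727 CPM, with 1 of 5 higher and 1 lower. All 4 tested choroid plexus markers and all 3 tested ependymal markers rose, 2 of 5 microglial markers rose, 2 of 4 endothelial markers and 4 of 6 interneuron markers fell, and of 5 pericyte markers 1 rose and 1 fell. The part of cell composition in the members' regional change was not tested.

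**Figure D2:**
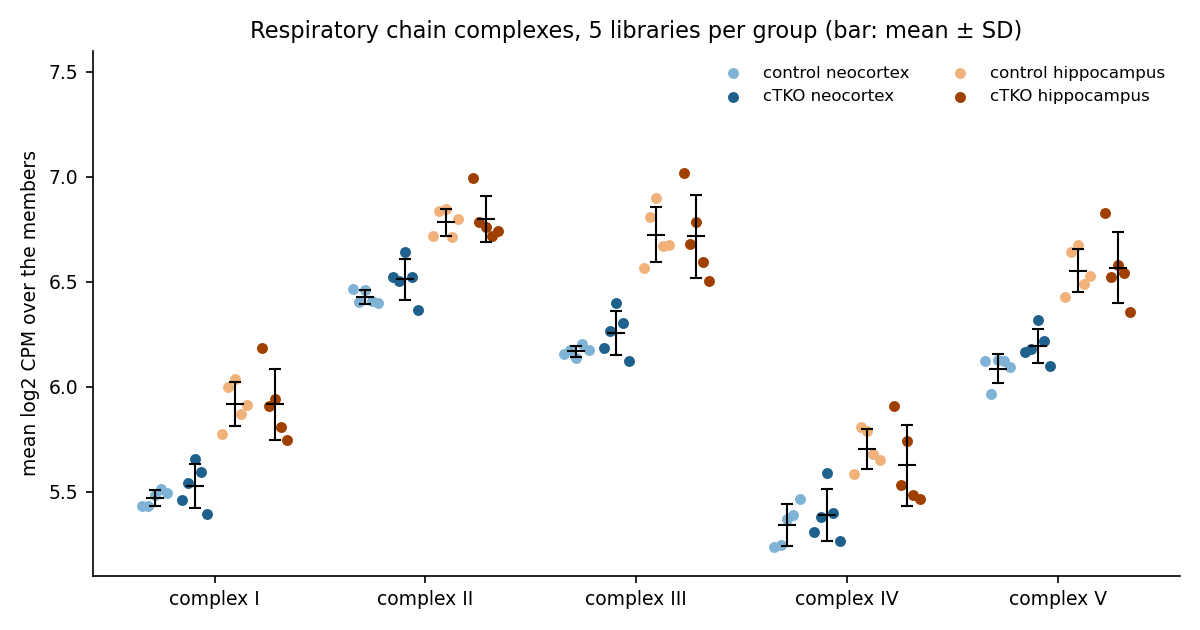
Mean log2 CPM over the kept members of each complex (y axis) in every library, with 1 point per library, 5 per group, and black bars for the mean ± SD. In controls the 5 hippocampal libraries lie above the 5 neocortical libraries in all 5 complexes, and the genotypes overlap within each region. In neocortex the overlap in complexes II and V comes from cTKO library 5 alone, which stood apart.

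Complex I is the largest assembly, with 7 core subunits encoded in the nucleus and many accessory subunits around them. In controls 31 of its 34 members rose, with a median of 0.43. Ndufb6, an accessory subunit of the membrane arm, read 19.5, 16.5, 17.4, 18.3 and 20.03 CPM in neocortex and 27.96, 32.999, 38.8, 30.6 and 35.1 CPM in hippocampus. The groups did not overlap, and the log2 fold change of 0.84 ± 0.089 was the largest among the members (edgeR FDR = 1.08e-06). Ndufa7, an accessory subunit of the matrix arm, read 37.7, 32.5, 36.6, 36.1 and 34.2 CPM in neocortex and 50.1, 68.3, 77.2, 60.2 and 56.4 CPM in hippocampus. These groups did not overlap either, with a log2 fold change of 0.81 ± 0.097 (edgeR FDR = 3.94e-06).

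The nuclear core subunits of complex I hold the flavin and the iron-sulphur clusters. Of these 7 subunits 5 rose, with a median of 0.27, and of the 27 accessory subunits 26 rose, with a median of 0.44; this difference was not tested. Among the core, Ndufv2 stood highest at 0.59 ± 0.058, and Ndufv1, which binds NADH, and Ndufs7, which carries the last cluster before ubiquinone, were not called, at 0.094 ± 0.046 and 0.082 ± 0.082 (edgeR FDR = 0.0919 and 0.406). Ndufv1, Ndufv2 and Ndufs7 were chosen after their values were seen. The third member not called was Ndufb4, at 0.26 ± 0.14, which is uncertain for its shared windows and was called without control hippocampus library 1 (edgeR FDR = 0.0349).

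Complex II, the succinate dehydrogenase of the citrate cycle, has 4 subunits and all rose. Sdhd, a membrane anchor, read 48.1, 43.8, 42.6, 43.6 and 44.8 CPM in neocortex and 62.7, 73.6, 78.4, 69.9 and 70.1 CPM in hippocampus. The groups were apart, with a log2 fold change of 0.66 ± 0.061 (edgeR FDR = 2.33e-07). The other anchor, Sdhc, rose by 0.34 ± 0.057 and the iron-sulphur subunit Sdhb, chosen after its value was seen, by 0.24 ± 0.060. Sdha, the flavoprotein that oxidizes succinate, rose by 0.16 ± 0.050 (edgeR FDR = 0.0153) with overlapping groups, and lost its call without neocortex library 4 (FDR = 0.0521).

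All 8 members of complex III rose, with the highest median, 0.56. Uqcr11 read 40.6, 44.5, 46.2, 49.1 and 48.0 CPM in neocortex and 61.9, 86.1, 86.2, 77.0 and 75.7 CPM in hippocampus. Uqcr10, another small subunit, read 38.8, 38.6, 34.0, 43.2 and 35.1 CPM in neocortex and 54.9, 70.1, 74.9, 59.9 and 58.1 CPM in hippocampus. Neither overlapped between regions, and the log2 fold changes were 0.76 ± 0.085 and 0.74 ± 0.089 (edgeR FDR = 2.09e-06 and 4.39e-06). The smallest change of the complex was that of the core protein Uqcrc1, 0.20 ± 0.046, which was also chosen after its value was seen.

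In complex IV, cytochrome c oxidase, 12 of 15 tested members rose and 1 fell, with a median of 0.48. Ndufa4, first described with complex I and now placed in complex IV, read 101, 91.0, 91.7, 93.1 and 88.2 CPM in neocortex and 127, 165, 189, 157 and 150 CPM in hippocampus, with no overlap. Its log2 fold change was 0.76 ± 0.083 (edgeR FDR = 1.68e-06). Cox7b rose by 0.60 ± 0.11. The widely expressed isoforms Cox4i1, Cox6a1, Cox6b1, Cox7a2 and Cox8a, and Cox7a2l, a relative that joins complexes into supercomplexes, rose by 0.41 to 0.57.

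Cox6a2 was the member that fell. It is the heart and skeletal muscle isoform of subunit 6a, known in the brain from parvalbumin interneurons. It read 10.6, 9.75, 12.6, 9.59 and 12.1 CPM in control neocortex and 7.34, 6.10, 5.41, 6.85 and 6.28 CPM in control hippocampus. The groups did not overlap, the log2 fold change was -0.78 ± 0.11 (edgeR FDR = 2.92e-05), and the ubiquitous Cox6a1 rose in the same libraries by 0.57 ± 0.080. Pvalb, the marker of those interneurons, was at 41.1 ± 1.41 CPM in control neocortex and 28.6 ± 1.84 CPM in control hippocampus (SD, n = 5), a log2 fold change of -0.53 ± 0.059 (edgeR FDR = 1.95e-06). The 6 interneuron markers together summed to 888 to 1023 CPM and 722 to 904 CPM, and 6 skeletal or cardiac muscle markers to 11.9 to 16.2 CPM and 5.39 to 6.91 CPM. The muscle sums were mostly Acta1 and Tnnt2, the 2 that passed the filter, and both fell. Ckm, Tnnt3, Mylpf and Myh6 were under 1 CPM in every library. The part of interneurons or muscle cells in the value of Cox6a2 was not tested. The gene overlaps Itgad.

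The other alternative isoforms were scarce. Ndufa4l2 lay between 2.13 and 3.05 CPM in neocortex and between 2.88 and 3.65 CPM in hippocampus, with a log2 fold change of 0.31 ± 0.15 (edgeR FDR = 0.0970). Cox6b2 read 0.777 to 1.67 CPM in neocortex and 1.16 to 2.36 CPM in hippocampus, with a log2 fold change of 0.62 ± 0.28 (edgeR FDR = 0.0666), and was called without control hippocampus library 2 (FDR = 0.0448) or control neocortex library 5 (FDR = 0.0179). Cox4i2 lay between 0.739 and 1.89 CPM in neocortical controls and between 0.364 and 1.25 CPM in hippocampal ones, beside 179 to 204 CPM and 232 to 324 CPM for Cox4i1.

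**Figure D3:**
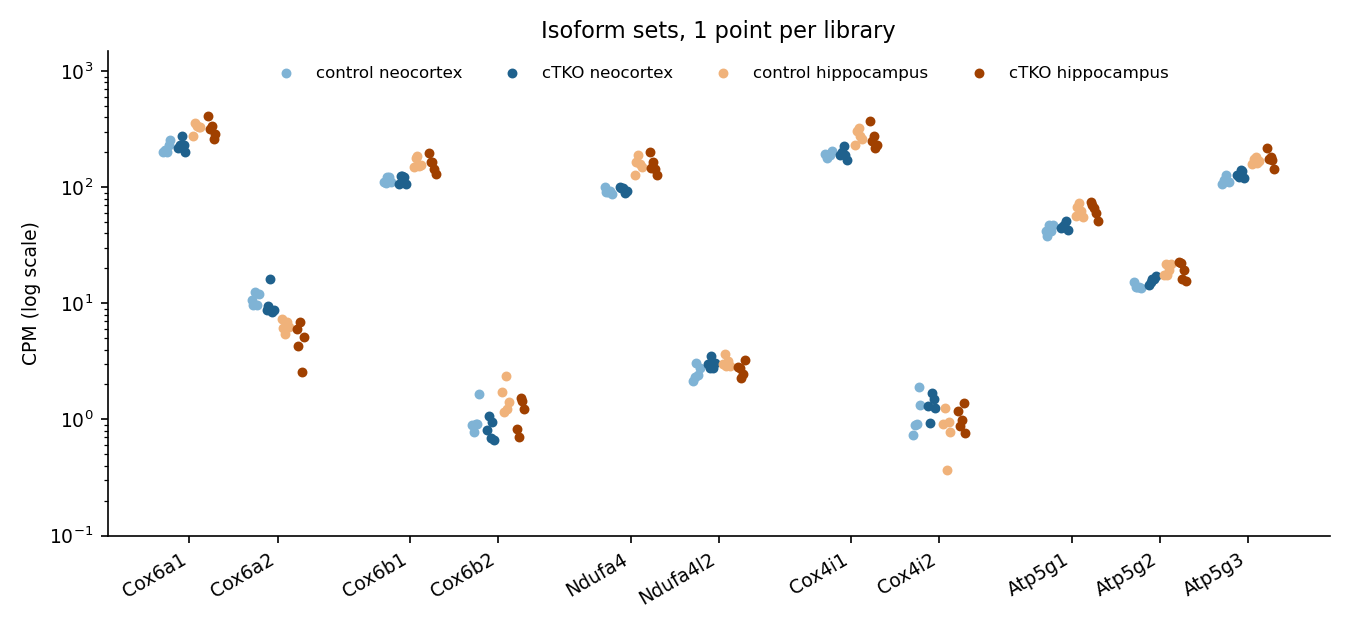
CPM on a log scale for members of 5 isoform sets, with 1 point per library and colours for the 4 groups. Cox6a2 is lower in hippocampus while Cox6a1 beside it is higher, and the alternative isoforms Cox6b2, Ndufa4l2 and Cox4i2 lie below 4 CPM.

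Of the 15 members of complex V, 14 rose, with a median of 0.54. Atp5k, subunit e of the membrane part, read 26.5, 26.4, 28.2, 29.5 and 29.3 CPM in neocortex and 42.7, 51.5, 55.8, 42.0 and 48.8 CPM in hippocampus. The groups did not overlap, with a log2 fold change of 0.78 ± 0.080 (edgeR FDR = 8.52e-07). Atp5e, the epsilon subunit of the central stalk, rose by 0.71 ± 0.11. In the catalytic head, Atp5a1 rose by 0.26 ± 0.050 and Atp5b by 0.31 ± 0.044. Atp5a1 was also chosen after its value was seen. Of the 3 genes for the c subunit, Atp5g1 rose by 0.54 ± 0.081, Atp5g2 by 0.48 ± 0.083 and Atp5g3 by 0.55 ± 0.058. In control hippocampus their levels were 63.1 ± 7.22, 19.7 ± 2.19 and 169 ± 10.2 CPM (SD, n = 5), in the same order as in neocortex. The member not called was Atp5l, at 0.856 to 1.14 CPM in hippocampus and 0.419 to 1.96 CPM in neocortex, which is uncertain for its shared windows. Neither Atp5s nor Atp5sl, relatives by name that are no subunits of the ATP synthase, was called, at 0.086 ± 0.078 and -0.072 ± 0.061.

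The regional comparison was repeated in cTKO mice, whose libraries are separate from those of the controls. Of 78 tested members 54 rose and 1, Cox6a2, fell, where 20.2% of 13846 genes rose and 21.1% fell. The groups were apart and higher for 41 members and apart and lower for 1, against 15% and 13.7% of all genes. The median was 0.39. Of 77 members tested in both genotypes, 55 were called in both with the same direction, 0 with opposite directions, 15 in controls alone and 0 in cTKO alone. The change was larger in controls for 50 of those 55, while the interaction passed for none of the members. These counts were not made over all genes. Calls over all genes were also fewer in cTKO, at 20.2% higher and 21.1% lower against 29.8% and 29.2% in controls. Across these 77 members the 2 sets of fold changes had a Spearman correlation of 0.934, as a description over genes that share libraries.

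By complex, 24 of 34 members of complex I rose in cTKO, 1 of 4 of complex II, 7 of 8 of complex III, 10 of 15 of complex IV and 12 of 15 of complex V. Ndufb6 rose by 0.74 ± 0.15, Ndufa4 by 0.69 ± 0.11, Atp5k by 0.60 ± 0.14, Uqcr11 by 0.59 ± 0.13 and Sdhd by 0.52 ± 0.075 on the log2 scale. Cox6a2 was at 8.77, 9.50, 16.1, 8.38 and 8.83 CPM in cTKO neocortex and 5.99, 4.29, 6.85, 2.54 and 5.17 CPM in cTKO hippocampus. It did not overlap between regions, with a log2 fold change of -1.06 ± 0.26 (edgeR FDR = 0.00542). Without the 2 libraries that stood apart, 52 members rose and 1 fell.

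**Figure D4:**
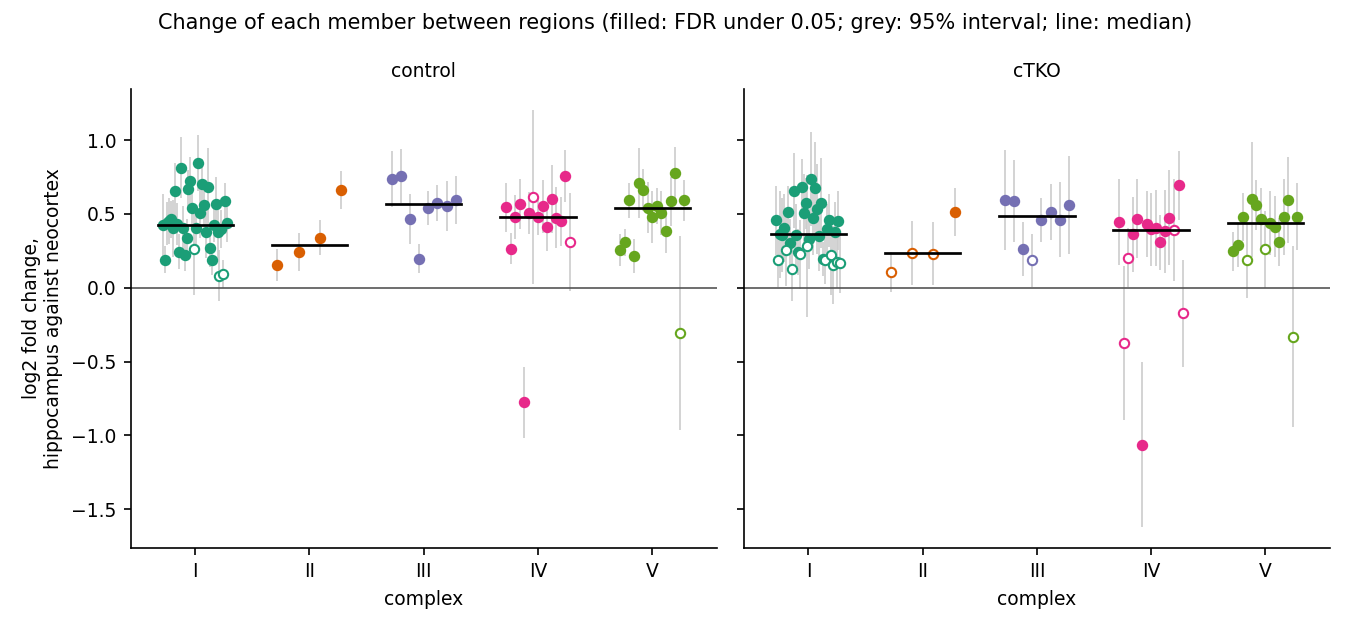
Log2 fold change of hippocampus against neocortex for each member by complex (x axis) in control (left) and cTKO mice (right), with filled points for an FDR under 0.05, grey 95% intervals and black medians. In controls 70 of 78 points are filled and in cTKO 55, and Cox6a2 in complex IV is the filled point below 0 in both.

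The regional change moved with transcript length. The members' median transcript was 838 bases, against 2294 bases over all genes with a length, and 49 of the 79 were under 1 kb. Across 13677 genes the Spearman correlation of the regional fold change in controls with transcript length was -0.276, and across the 78 members it was -0.306, both as descriptions over genes that share libraries. Of all 662 tested genes with a transcript under 1 kb, 402 rose and 49 fell, with a median of 0.39. Among cytosolic ribosomal protein genes 77 of 78 rose, with a median of 0.63. Within the members, 42 of 48 under 1 kb rose, 20 of 22 of 1 to 2 kb and 7 of 8 of 2 kb or more.

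When each library's trend on length was removed, 41 of the 78 members rose and 6 fell in controls, with a median of 0.15, where 28.5% of all genes rose and 28.4% fell. With the trends on length and GC content removed, 46 rose and 7 fell, with a median of 0.17, against 28.4% and 28% of all genes. In cTKO mice 21 of 78 rose and 3 fell after the first, where 20.3% of all genes rose and 20% fell, so the count that rose lay near the share over all genes. After the second 29 rose and 1 fell, where 19.8% of all genes went each way. The ribosomal protein genes kept a median of 0.28 after the length trend was removed in controls, with 58 of 78 higher. Removing such a trend also takes out any regional change that short genes share. Cox6a2 fell by 1.16 and 1.13 log2 units under these settings. Cox8a, Ndufb10 and Ndufb4 changed sign under the length setting, at -0.0098, -0.037 and -0.029. RNA kit differed with region, and its part in the length trend cannot be told apart from that of the tissue.

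**Figure D5:**
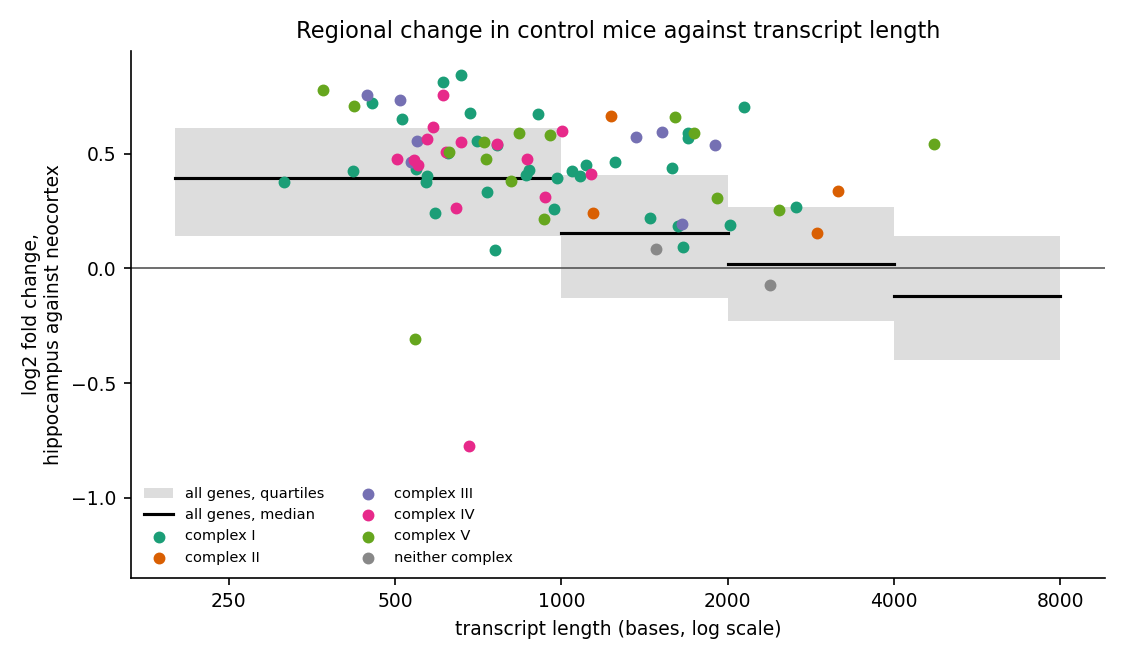
Log2 fold change of hippocampus against neocortex in control mice (y axis) against transcript length in bases on a log scale (x axis) for the members, coloured by complex. Grey boxes and black lines give the quartiles and median of all genes in 4 length classes, 0.39 under 1 kb; all but Atp5sl of the 8 members of 2 kb or more lie above the median line, and the lowest point is Cox6a2. The length of 4715 bases drawn for Atp5g1 is that of the longer of 2 transcripts, and the shorter has 596 bases.

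The 32 members with a motif in a promoter window and the 33 without had median regional changes of 0.48 and 0.48 log2 units in controls, and 29 of each rose. The gene for NRF1, Nrf1, had a fold change of 0.0027 ± 0.080 log2 units and Yy1 one of 0.12 ± 0.064, and neither was called. Gabpa, the gene for the ETS factor GABPA, rose by 0.26 ± 0.061 (edgeR FDR = 0.00211), and it overlaps Atp5j. Among 13 regulators of mitochondrial biogenesis 2 rose and 3 fell, with a median of 0.0027. The largest fall was that of Esrrg, an orphan nuclear receptor, -0.92 ± 0.10 (edgeR FDR = 2.28e-06), and the coactivators Ppargc1a and Ppargc1b also fell, by 0.30 and 0.54 log2 units. Nrf1, Yy1, Ppargc1a and Ppargc1b were chosen after their values were seen.

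Other mitochondrial genes were counted in the same way, against the 29.8% of all genes that rose and the 29.2% that fell. Of 44 assembly factors, which help build the complexes, 24 rose and 0 fell in control hippocampus, with a median of 0.22, led by Sdhaf4, an assembly factor of complex II, at 0.74 ± 0.14. Of 17 genes of pyruvate dehydrogenase and the citrate cycle 14 rose and 1 fell, with a median of 0.23. Dlat, the acetyltransferase of pyruvate dehydrogenase, rose by 0.44 ± 0.054, and Ogdh of the oxoglutarate dehydrogenase fell by 0.16 ± 0.044. The list of electron carriers held genes of ubiquinone synthesis, cytochrome c and the electron transfer flavoprotein, and also Gpd2, Dhodh, Sqor and Prodh. Of its 16 tested genes 7 rose and 1 fell. Etfb, a subunit of that flavoprotein, rose by 0.79 ± 0.093, and Pdss1, which makes the side chain of ubiquinone, fell by 0.71 ± 0.12.

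Of 15 genes of glycolysis, which feeds pyruvate to the mitochondria, 6 rose and 3 fell between regions in controls, with a median of 0.096. These are 40% and 20% of the list, near the shares over all genes. The phosphofructokinase genes went both ways, with Pfkl higher by 0.51 ± 0.053 and Pfkp lower at -0.74 ± 0.048 (edgeR FDR = 8.08e-07 and 5.75e-09). In the genotype comparisons and the interaction 0 genes of any of these lists were called. The medians for glycolysis were 0.093 in neocortex and 0.10 in hippocampus, and those of the citrate cycle 0.069 and 0.052.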

How the data were processed

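Total RNA was sequenced as 100-base single-end TruSeq poly-A libraries. The paper names more than 1 sequencer model and does not say which libraries ran on which. Per the study's methods and the submitters' processing notes, the authors aligned reads with STAR 2.5.4a to mm10 and counted them with HTSeq; the annotation and strand setting are not given in the sources used here. The deposited files hold raw counts per gene symbol for 24421 genes, with no row for unassigned reads, and no column was left unmapped. Here CPM were scaled by edgeR's TMM factors over the 20 libraries. Comparisons used edgeR 4.0.16 (R 4.3.3), glmQLFit and glmQLFTest, on genes above 1 CPM (on library totals) in at least 5 libraries of the fit, with Benjamini-Hochberg FDR over all genes tested and a threshold of 0.05; ± after a log2 fold change is its SE. Tests were checked on simulated data. Alternatives were DESeq2 1.42.0, other scalings and filters, a replicate block, RIN as a covariate and leaving out libraries in turn. Mean log2 CPM used a prior count of 2. Transcript lengths are those of the longest GENCODE vM21 transcript with a RefSeq match.

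The members and lists were chosen with earlier results of these data known. Genes were named if called between genotypes, if among the 3 smallest p-values there (2 for the interaction), if among the 2 largest called rises or falls of a complex between regions in controls, if part of an isoform set, if highest or lowest per kb in a complex or nearest the filter, and, in the other lists, if the largest called rise or fall; genes outside this rule complete a count or are marked, and were chosen after their values were seen. By the study's methods both regions came from the same 5 cTKO and 5 control mice, but the labels do not say which libraries share a mouse. The regional and interaction tests had no term for mouse and treated the libraries as separate samples. The p-values measure the spread between these samples. Between regions in controls, libraries with the same number deviated together (correlations of 0.13 to 0.335 over genes, 5 of 5 best with their own number). The main tests there used no pairs, and a replicate block was run as an alternative. Between genotypes in neocortex, where a number cannot mark a mouse, 4 of 5 were also best with their own number. What a number marks is therefore not known.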

Additional observations from a re-analysis of the deposited data

Results flagged for a closer look

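Among 164 sets of 5 libraries (the mean log2 CPM of each complex and the CPM of each of 35 named members in each group), 10 held a library farther from the others than Dixon's test allows at the 95% level, and chance alone gives about 1 in 20. The mean log2 CPM of complex II in cTKO hippocampus library 1 was 6.99 against 6.78 in the next library, and in the same library the anchor subunits Sdhc and Sdhd were at 68.8 and 81.1 CPM against 56.8 and 68.5 CPM. That library also had the highest share of counts in the members, 1.10%, and in cytosolic ribosomal protein genes, 1.27%; the part of the latter was not tested. The mean of complex V in control neocortex library 2 was 5.96 against 6.10, where the scarce Atp5l was at 0.419 CPM. In cTKO neocortex library 5, which stood apart, Ndufb6 was at 17.7 CPM against 20.8 CPM and Sdha at 297 CPM against 339 CPM. In cTKO neocortex library 3, Cox6a2 was at 16.1 CPM against 9.50 CPM and Sdhc at 60.3 CPM against 47.7 CPM. Atp5g2 was at 15.1 CPM in control neocortex library 1 against 13.96 CPM, and Cox6b2 at 1.67 CPM in control neocortex library 5 against 0.913 CPM.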

How the results depend on the processing

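In the genotype comparisons and the interaction, 0 members were called under every alternative run, and their medians over the settings that did not leave out libraries in turn ran from 0.032 to 0.10 in neocortex, from -0.040 to 0.022 in hippocampus and from -0.094 to -0.025 for the interaction. With a library left out in turn the neocortical median ran from 0.046, without cTKO library 3, to 0.10, and the hippocampal one from -0.094 to 0.043, on both sides of 0. The interaction median was -0.073 and ran from -0.17, without cTKO hippocampus library 1, to -0.023, without cTKO hippocampus library 5. It was -0.11 without cTKO neocortex library 5, -0.033 without cTKO neocortex library 3 and -0.035 without control hippocampus library 3. In controls the regional count of 70 was 69 to 71 with a library left out, and 47 and 53 with the length trend and the length and GC trends removed, which were chosen after seeing the data; the median fell from 0.47 to 0.148 and 0.173. In cTKO mice the count of 55 was 48 to 62 with a library left out, 66 when all 20 libraries were fitted together, 61 with RIN as a covariate, and 24 and 30 under the 2 trend settings, with medians of 0.115 and 0.134. The length setting fits fewer genes and takes out what short genes share by construction. With the median over members in place of the mean, the regional difference in controls was 0.508 for complex IV and 0.581 for complex V; the mean gives 0.361 and 0.467, and the cause was not tested. Signs turned for Cox8a (-0.0098), Ndufb10 (-0.037) and Ndufb4 (-0.029) with the length trend removed, and for Ndufb4 (-0.0050) with length and GC removed.

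The replicate block called 70 members in the control regions, 69 higher and 1 lower, 55 in the cTKO regions, and 0 in the genotype comparisons and the interaction, so it changed no count. The control regions alone met the rule that every same-numbered pair correlates above 0.1, and the main tests there used no block. Between genotypes the correlations ran from -0.00912 to 0.221 in neocortex, with 4 of 5 best with their own number. In hippocampus they ran from -0.137 to 0.14, with 1 of 5. In the cTKO regions, numbers 1, 2 and 3 correlated at 0.345, 0.319 and 0.396, each best with its own number, and numbers 4 and 5 at -0.0564 and -0.0713. Hippocampus library 4 correlated best with neocortex library 5, at 0.575, and these are the libraries that stood apart, so the block by number is no check of pairing in cTKO mice. With 5 libraries a group, members near 1 CPM had the widest intervals.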
